A study of Drosophila melanogaster with 2 samples.

Results

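Head-to-head gene pairs are pairs of neighbouring protein-coding genes that are transcribed away from each other, so that the DNA between their start sites is the upstream region of both. A pair was kept where the start of the plus-strand gene lay 0 to 1000 bp to the right of the start of the minus-strand gene on the fly chromosome arms, in the Ensembl annotation on the dm6 assembly, and the closest combination of starts was taken for each pair. This gave 2667 pairs that held 5052 of the 13945 protein-coding genes of the 6 arms, and the other 8893 genes had no facing start. The members were scored by the peaks of 1 chromatin immunoprecipitation experiment with sequencing (ChIP-seq). Whole Drosophila melanogaster embryos aged 0 to 18 hours came from the strain CkIIalpha-i1-GFP, in which the CkIIalpha-i1 protein is fused to enhanced green fluorescent protein, and an anti-GFP antibody was used. The labels do not name the promoter that drives the fusion. There were 2 biological replicates in 1 group, with chromatin sonicated to 200 to 800 bp. Neither a wild-type strain nor a control library was analysed here, so all comparisons are between sets of promoters or peaks within the same embryos. Whole embryos mix all cell types and stages of that interval, and the tissue of a peak cannot be told apart.

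A promoter shared by divergent genes carries a separate site of transcription initiation for each gene, and the stretch between them is commonly free of nucleosomes. In the compact fly genome such pairs are frequent, and many of their genes serve general cell functions such as translation, RNA processing and membrane traffic. CkIIalpha-i1 was named as a protein that interacts with the catalytic subunit of casein kinase II, a serine/threonine kinase with many nuclear and cytoplasmic substrates.

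The sequences below show some of the shared promoters with high signal. They are followed by examples that hold the word ACAGTGG and by 1 pair whose candidate was not in the thresholded list. Not all of the strongest pairs are shown. Those of mRpL41/CG8079, PNPase/Gprk2, mRpS23/CenG1A and CG5611/Mtl, with gaps of 352 to 762 bp, are left out. All are plus-strand RefSeq sequence of Release 6 (dm6), written 5′ to 3′, and the minus-strand gene of each pair begins at the left end of a printed gap and the plus-strand gene at its right end. Capitals mark matches on either strand to ACAGTGG, to its core CAGTG, to the E-box word CAGCTG and to the short word CGATA. The full DRE, TATCGATA, which the promoter factor Dref binds, holds that short word on both strands. The gap of CG7601/CIA30 (chr3R:29736745-29736965, 221 bases) had its summit at base 101 and that of Tcs5/CHMP2B (chr3L:5139395-5139619, 225 bases) at base 98. For Art3/mRpS10 (chr3R:15229408-15229665, 258 bases) it was base 133, for CG13390/CG17294 (chr2L:8376797-8377035, 239 bases) base 91, and for Atat/Shc (chr3L:9426758-9427010, 253 bases) base 116. These 5 summits lay near the middle of their gaps. For the wide gap of Ugalt/eIF2Bbeta (chrX:2703821-2703971) and the narrow gap of CG1275/Elp5 (chr3L:2257464-2257614), 75 bp on either side of the summit are shown, with the summit at base 76.
CG7601/CIA30: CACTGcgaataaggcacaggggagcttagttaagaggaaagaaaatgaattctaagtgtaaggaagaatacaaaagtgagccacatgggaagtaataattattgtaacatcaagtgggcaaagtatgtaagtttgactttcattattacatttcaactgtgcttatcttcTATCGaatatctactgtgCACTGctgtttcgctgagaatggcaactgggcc
Tcs5/CHMP2B: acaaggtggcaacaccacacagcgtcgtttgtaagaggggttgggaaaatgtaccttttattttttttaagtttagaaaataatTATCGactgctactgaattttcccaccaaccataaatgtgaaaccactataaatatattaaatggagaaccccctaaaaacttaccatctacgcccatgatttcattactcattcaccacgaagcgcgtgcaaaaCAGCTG
Art3/mRpS10: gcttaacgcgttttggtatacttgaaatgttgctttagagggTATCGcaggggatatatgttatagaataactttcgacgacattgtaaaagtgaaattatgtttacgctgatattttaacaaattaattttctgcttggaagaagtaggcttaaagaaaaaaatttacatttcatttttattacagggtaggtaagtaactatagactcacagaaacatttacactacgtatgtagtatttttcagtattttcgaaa
CG13390/CG17294: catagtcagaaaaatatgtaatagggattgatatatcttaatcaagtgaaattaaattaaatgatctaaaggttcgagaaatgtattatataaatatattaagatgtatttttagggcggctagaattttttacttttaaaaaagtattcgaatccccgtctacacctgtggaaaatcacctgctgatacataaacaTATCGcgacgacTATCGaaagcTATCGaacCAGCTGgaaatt
Atat/Shc: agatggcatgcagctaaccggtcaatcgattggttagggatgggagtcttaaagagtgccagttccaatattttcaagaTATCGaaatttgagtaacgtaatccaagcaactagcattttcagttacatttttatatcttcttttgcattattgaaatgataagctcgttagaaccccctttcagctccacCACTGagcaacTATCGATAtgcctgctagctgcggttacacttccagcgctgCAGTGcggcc
Ugalt/eIF2Bbeta: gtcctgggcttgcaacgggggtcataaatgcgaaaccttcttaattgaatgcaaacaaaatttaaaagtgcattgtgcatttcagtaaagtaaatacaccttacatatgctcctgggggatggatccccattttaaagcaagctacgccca
CG1275/Elp5: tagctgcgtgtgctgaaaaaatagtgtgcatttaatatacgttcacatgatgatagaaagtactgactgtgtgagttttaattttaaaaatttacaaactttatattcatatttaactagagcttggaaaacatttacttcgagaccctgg
The gaps of Lon/PIG-F (chr3L:19612199-19612455, summit at base 72) and Coq4/CG32176 (chr3L:17433621-17433868, summit at base 133) held ACAGTGG close to a start.
Lon/PIG-F: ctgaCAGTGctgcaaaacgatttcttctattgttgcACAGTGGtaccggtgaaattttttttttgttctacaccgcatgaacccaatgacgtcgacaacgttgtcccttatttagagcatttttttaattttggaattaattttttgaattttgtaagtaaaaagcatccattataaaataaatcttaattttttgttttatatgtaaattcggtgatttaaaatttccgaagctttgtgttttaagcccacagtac
Coq4/CG32176: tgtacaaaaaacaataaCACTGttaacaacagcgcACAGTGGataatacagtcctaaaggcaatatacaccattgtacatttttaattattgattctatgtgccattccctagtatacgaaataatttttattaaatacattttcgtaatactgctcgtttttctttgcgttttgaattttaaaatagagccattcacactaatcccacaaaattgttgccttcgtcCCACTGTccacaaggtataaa
The gap of Sirt6/pont (chr3R:10261849-10262123) is shown because its candidate, with the highest position at base 146, was not in the thresholded list. It was absent although its −log10 global irreproducible discovery rate, 2.53, was above the lowest value in that list, 2.
Sirt6/pont: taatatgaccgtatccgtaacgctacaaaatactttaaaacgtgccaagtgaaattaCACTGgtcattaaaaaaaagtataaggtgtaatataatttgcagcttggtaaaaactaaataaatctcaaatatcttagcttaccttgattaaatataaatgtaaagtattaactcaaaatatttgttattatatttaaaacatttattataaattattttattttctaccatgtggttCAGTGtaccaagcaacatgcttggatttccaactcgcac

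In the pooled thresholded list, 147 of the 2667 pairs (5.51%, exact 95% interval 4.68 to 6.45) had a summit in the gap or within 100 bp of it, against 2.27% of the genes with no facing start, which were scored from 500 bp upstream to 100 bp downstream of a start. Counted per gene, 288 of the 5052 paired genes (5.70%) belonged to a pair with a summit. Both genes were credited with any summit of their pair, also beyond the 500 bp scored upstream of other genes. The summit of Ugalt/eIF2Bbeta, for example, lay 675 bp from the start of eIF2Bbeta. A summit is the base of highest signal in a peak, and a thresholded peak is one that the authors kept after ranking by irreproducible discovery rate (IDR). The pairs with a summit drew on 144 distinct peaks, which were 15.6% of the 923 thresholded peaks on the 6 arms (interval 13.3 to 18.1). Of the 144401 ranked candidates, by contrast, 1.04% lay at pairs. The conservative list gave 119 pairs (4.46%) against 1.75% of genes with no facing start. The replicate 1 list gave 70 pairs (2.63%) against 1.3%, and the replicate 2 list gave 93 pairs (3.49%) against 1.38%. Pairs thus had a higher share than other genes in all 4 lists. A pair brings together the starts of 2 genes, however, and its window is unlike that of other genes. These shares are not adjusted for either. The intervals cover counting error only, and pairs that share a peak or a gene are not independent.

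Because a gap can be far shorter than an upstream window, the same comparison was made per length of DNA. This adjusts for length but not for the number of starts in a window. Head-to-head windows held 104.4 thresholded summits per Mb (144 summits in 1378962 bp), against 30.7 per Mb upstream of other starts (206 summits in 6707259 bp), a ratio of 3.40. The ratio was 3.07 in replicate 1 and 3.59 in replicate 2. With other starts counted from only 200 bp upstream, their density was 36.7 per Mb and the ratio 2.85. In the pooled list, candidates without regard to the threshold were about as dense in both kinds of window, at 1089 per Mb in head-to-head windows and 1035 per Mb at other starts. The windows differed more in how many of their candidates passed. This was 9.59% of 1502 in head-to-head windows, against 2.97% of 6941 at other starts and 0.639% of all candidates on the 6 arms. A candidate of any rank was found at 51.0% of pairs. In replicate 1, candidates were denser at pairs (1070 against 889.6 per Mb), and 4.88% passed, against 1.91% at other starts. Replicate 2 had 759.3 against 700.4 per Mb, of which 8.88% and 2.68% passed.

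**Figure D1:**
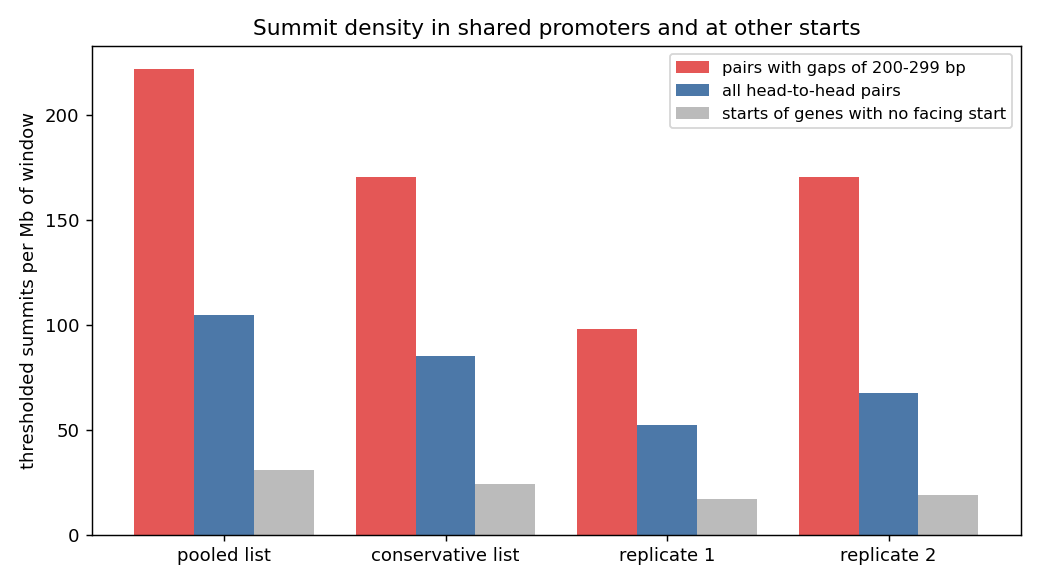
Bars give thresholded summits per Mb of window (y axis) in each of the 4 lists (x axis) for pairs with gaps of 200 to 299 bp, for all head-to-head pairs and for starts of genes with no facing start. In every list the order is the same, and in the pooled list the values are 221.6, 104.4 and 30.7 per Mb.

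The share of pairs with a summit varied with the distance between the starts. Gaps of 200 to 299 bp had the highest share in the pooled list, 52 of 544 pairs (9.56%, interval 7.22 to 12.3). Narrower gaps were lower, at 3.74% of 428 pairs for 0 to 99 bp and 3.41% of 352 pairs for 100 to 199 bp. Wider gaps lay between 4.68% and 5.58%. Narrow gaps also have a shorter window, and per Mb their order against the wider gaps turned in the pooled list. Gaps of 0 to 99 bp held 153.0 summits per Mb and gaps of 100 to 199 bp 104.8, against 57.4 to 88.9 in the 4 classes from 300 bp up and 221.6 at 200 to 299 bp. The narrowest class was above those 4 classes in the other lists too. That of 100 to 199 bp was not, with 34.92 per Mb in replicate 1 and 43.65 in replicate 2, against 69.14 at 400 to 499 bp in each. In the conservative list these 2 classes held 87.3 and 88.0 per Mb. The class of 200 to 299 bp reached 7.35% in both the conservative and the replicate 2 list. In replicate 1 it was 4.23%, close to the 4.09% of gaps of 400 to 499 bp, so that list did not set the class apart from every other. Candidates were slightly denser in this class (1146 per Mb, against 1089 per Mb in all head-to-head windows), and 19.3% of its 269 candidates passed the threshold, against 9.59% in all of those windows. The class limits were chosen after the distribution had been seen. Over all pairs the gap had a median of 301 bp (quartiles 163 and 502), and pairs with a summit had a median of 288 bp (223 and 481), against 302 bp (157.5 and 505) for pairs without.

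**Figure D2:**
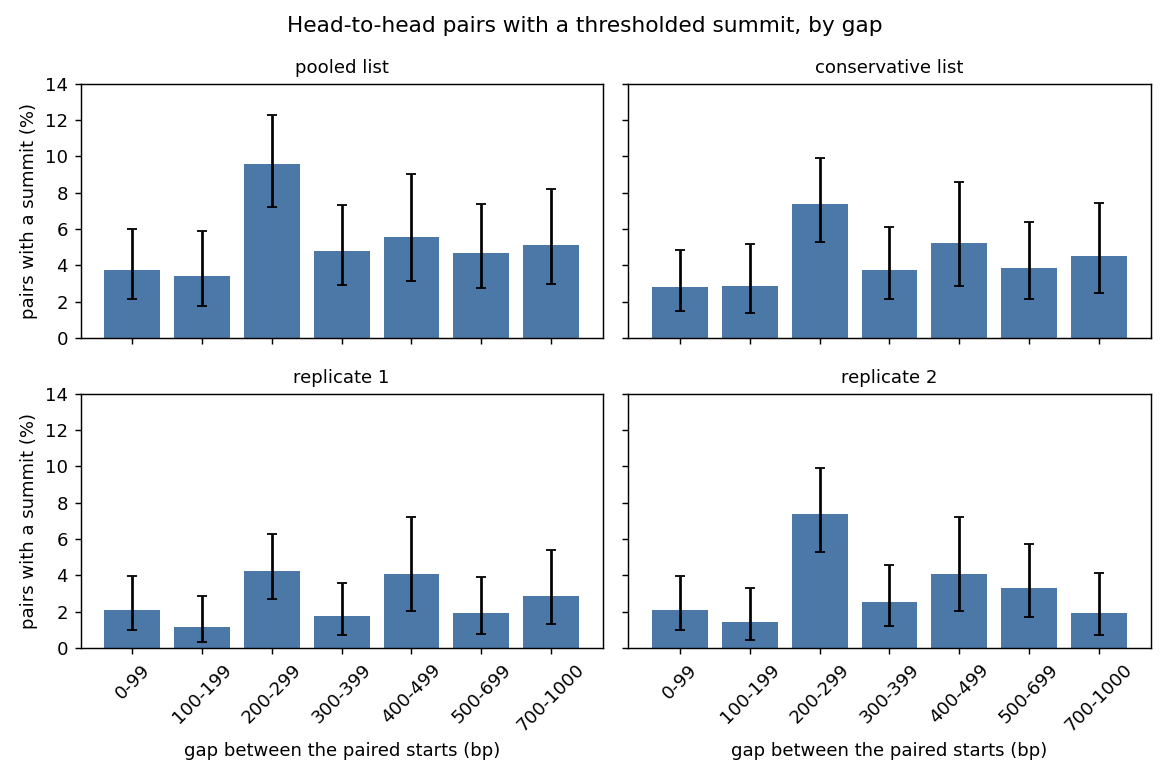
Bars give the percent of head-to-head pairs with a thresholded summit (y axis) by gap between the paired starts in bp (x axis), 1 panel per list, with exact 95% binomial intervals. The class of 200 to 299 bp stands highest in each panel, at 9.56% in the pooled list, and in replicate 1 it is level with the class of 400 to 499 bp.

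Among gaps of at least 100 bp, 122 summits lay inside the gap, at a median of 90 bp from the nearer start. Their median position was 50.3% of the way from the minus-strand to the plus-strand start (quartiles 31.0% and 77.0%). A median near 50% does not show that summits were central, because the direction from minus to plus strand is arbitrary for a pair. In gaps of 200 to 299 bp, 37 of 50 summits (74.0%) were in the middle 50% of the gap, and the median distance to the nearer start was 89.5 bp. In gaps of 300 bp or more, 41 of 62 summits (66.1%) were within 150 bp of 1 of the starts, but that distance took in 60.2% of the length of these gaps on average, so the count shows no nearness to the starts. Of these 62, 29 were nearer to the minus-strand start and 33 to the plus-strand start. In gaps under 100 bp only 2 of 16 summits were inside the gap, and the median summit lay 98.5 bp upstream of the farther start (range 54 to 163 bp). The other 14 lay on the transcribed side of the nearer start. The rule allows at most 100 bp beyond the gap, which bounds that range.

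**Figure D3:**
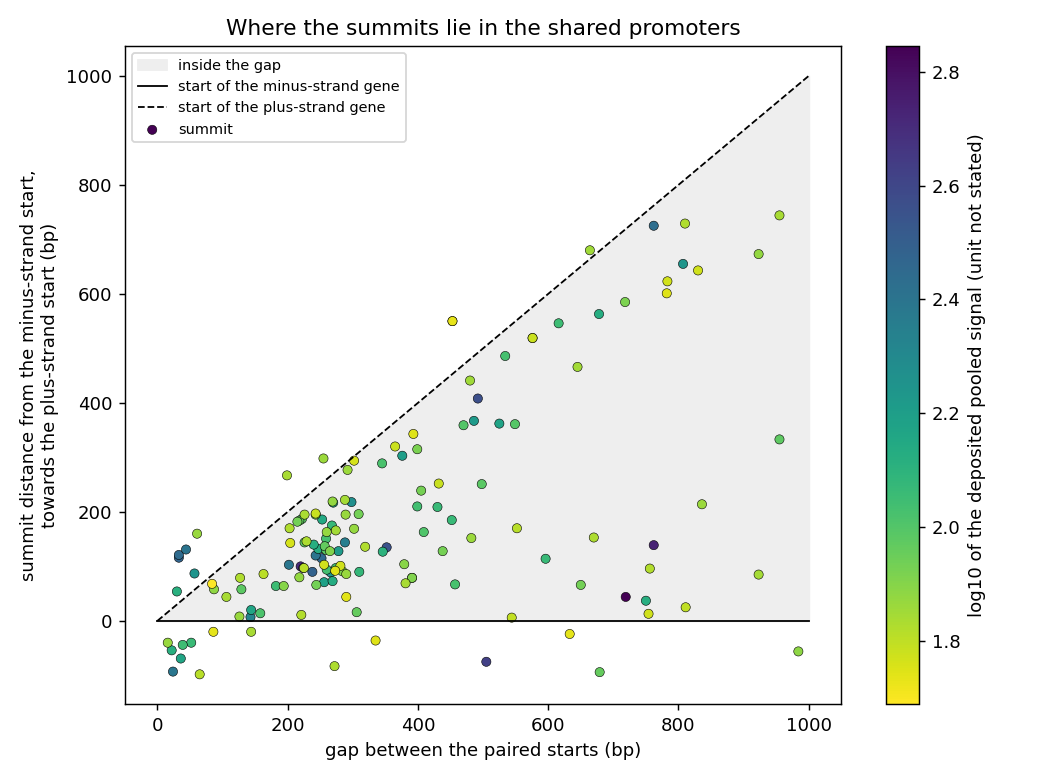
Each point is a summit of a pair in the pooled list, with the gap in bp (x axis), the distance from the minus-strand start towards the plus-strand start in bp (y axis) and the log10 of the deposited signal as colour; the solid and dashed lines are the 2 starts. Points crowd midway between the lines at gaps of 200 to 299 bp, lie outside the shaded gap when it is under 100 bp, and are spread between the lines in wider gaps.

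The 3 pairs with the widest accepted gaps (993, 994 and 995 bp) and the 3 pairs just outside (1003 bp each) had no summit. At the margin of 100 bp, the accepted summits farthest out were those of TTLL5/vig2, tty/fliI and Tsp3A/Seipin, at 97 to 99 bp with signals of 53.6 to 73.3. The first summits left out were those of Chro/Ssl1, CG14965/Hsp83 and corolla/ND-24, at 105 to 107 bp. Of these, Chro/Ssl1 had the high signal of 321.2; Chro encodes a chromodomain protein of interbands and Ssl1 a subunit of the general transcription factor TFIIH.

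Signal, the authors' score for each peak with no stated unit, was similar at pairs and at other starts in the pooled list. Its median was 85.6 at pairs (quartiles 69.0 and 130.8), against 84.0 at peaks within 500 bp of another start and 74.6 at peaks elsewhere. Here and below, peaks at other starts are those not at a pair that lay within 500 bp of any protein-coding start. Starts of paired genes count among these, so such peaks are not only those of genes with no facing start. At the upper end pairs were more frequent. They held 8 of the 20 strongest peaks (40.0%, interval 19.1 to 63.9) and 17 of the 50 strongest (34.0%, 21.2 to 48.8). Of the 100 strongest they held 25 (25%, 16.9 to 34.7), and of all peaks 15.6%. The same counts for peaks at other starts are not given here. Among the 20 strongest peaks of the other lists they held 10 in replicate 1, 8 in replicate 2 and 8 in the conservative list.

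Both replicates had a thresholded peak overlapping 51 of the 144 peaks at pairs (35.4%), against 32.7% of the 294 peaks at other starts and 23.3% of the 485 peaks elsewhere. Replicate 1 alone had one at 18 of the 144, replicate 2 alone at 37 and neither at 38. Of the 144, 110 were in the conservative list. A candidate of any rank was present for 144 in replicate 1 and for 141 in replicate 2. Over the 141 with a candidate in both, the signal of replicate 2 was above that of replicate 1 in 83, with medians of 41.5 in replicate 1 and 47.97 in replicate 2. Across these peaks, which come from the same libraries and are not independent, Pearson's r was 0.875 and Spearman's rho 0.479. The summits of the replicates were a median of 26 bp apart.

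**Figure D4:**
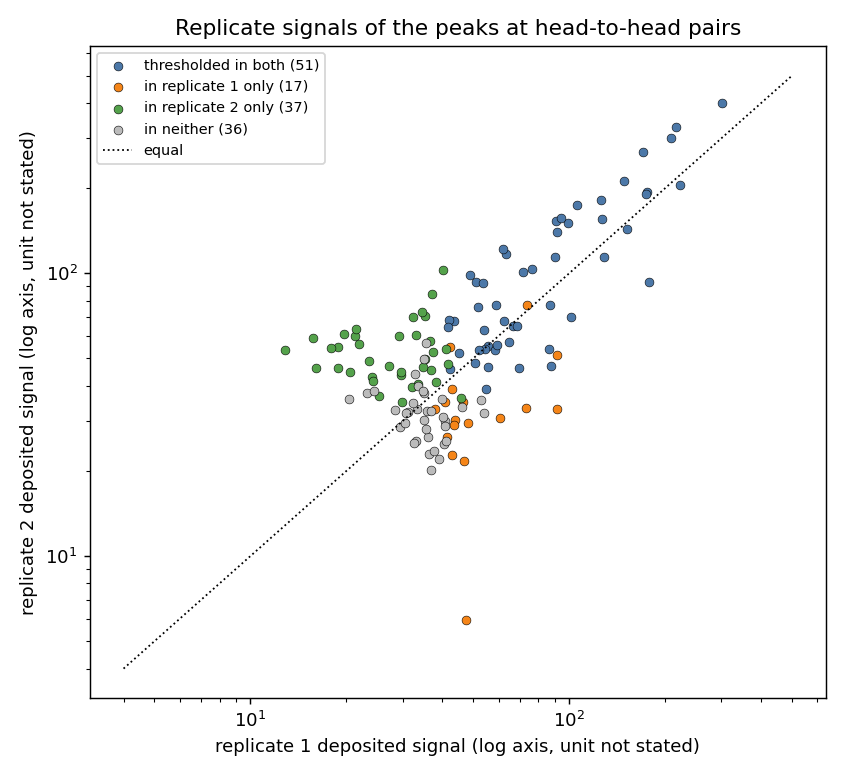
Each point is a peak at a head-to-head pair with a candidate in both replicates (141), with the deposited signal of replicate 1 (x axis) and of replicate 2 (y axis), both log axes with no stated unit, coloured by which replicate's thresholded list held an overlapping peak. Most of the strongest peaks lie above the line of equal signal, with replicate 2 higher in 17 of the 20 strongest pairs thresholded in both replicates, and the 36 grey points, thresholded in neither replicate, lie at low signal in both.

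The strongest member was Ugalt/eIF2Bbeta, with a pooled signal of 700.6 (replicate 1, 300.7; replicate 2, 401.3). Ugalt encodes a Golgi transporter of UDP-galactose, and eIF2Bbeta a subunit of the exchange factor that reloads the translation factor eIF2. The starts are 719 bp apart and the summit was 44 bp from the start of Ugalt and 675 bp from that of eIF2Bbeta. The next was mRpL41/CG8079 on arm 2R (541.2; replicate 1, 215.6; replicate 2, 327.8), in which mRpL41 encodes a protein of the large mitochondrial ribosome subunit. That gap of 762 bp held a peak near each start, the first 139 bp from the start of mRpL41 and the second, with a signal of 271.5, at 37 bp from that of CG8079. Only 2 other pairs had more than 1 summit. Ank2/Mcad (gap 955 bp) had signals of 94.3 and 69.2, and Ac78C/chb (gap 923 bp) had 75.3 and 69.7.

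Of the 20 pairs of highest signal whose peak overlapped a thresholded peak in each replicate, 9 had gaps of 200 to 299 bp. CG7601/CIA30 had a signal of 507.4 (replicate 1, 209.0; replicate 2, 300.2), and its summit was 100 bp from one start and 120 bp from the other; CIA30 encodes an assembly factor of respiratory complex I. Tcs5/CHMP2B had 433.3 (170.2 in replicate 1 and 268.3 in replicate 2), with 97 and 127 bp; Tcs5 belongs to the complex that makes a tRNA modification, and CHMP2B is an ESCRT-III protein that cuts membranes. Art3/mRpS10 had 365.1, with 132 and 125 bp, and pairs an arginine methyltransferase gene with one for the small mitochondrial ribosome subunit. In these pairs the summit lay 43.3% to 51.4% of the way from the minus-strand to the plus-strand start. CG13390/CG17294 (307.2), Atat/Shc (285.0), CG3437/CG3552 (248.8), fws/Lamtor3 (246.1) and Mkk4/SLIRP2 (225.7) had their summits 90 to 148 bp from each start. Atat encodes a tubulin acetyltransferase, Shc an adaptor of receptor tyrosine kinases, fws a Golgi tethering subunit, Lamtor3 a lysosomal scaffold and Mkk4 a kinase of the JNK pathway. In Reps/l(2)gd1 (188.0) the summit was less central, 218 bp from the start of Reps and 80 bp from that of l(2)gd1, an endosomal regulator of Notch traffic.

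A further 5 of the 20 had gaps under 100 bp. CG1275/Elp5 (296.9) had starts 33 bp apart and its summit was 83 bp beyond the start of Elp5, a subunit of the Elongator complex. Pex11ab/CG8320 (278.2; Pex11ab encodes a peroxisome protein), Fbw5/CG9147 (252.3), mRpL23/CG9004 (246.0) and CG8372/CG8360 (176.3) had gaps of 33, 44, 24 and 57 bp. In each of these 5 the summit lay outside the gap, on the transcribed side of one start. Mnat9/CG1792 (208.2) had a gap of 143 bp and its summit 7 bp from the start of Mnat9. The remaining wide gaps were PNPase/Gprk2 (422.6, gap 505 bp), mRpS23/CenG1A (367.9, gap 492 bp) and CG5611/Mtl (359.5, gap 352 bp). The PNPase/Gprk2 summit was 75 bp inside the transcribed side of PNPase, the mitochondrial RNA-degrading enzyme. That of mRpS23/CenG1A was 84 bp from the start of CenG1A, and that of CG5611/Mtl lay inside the gap, 135 bp from the start of CG5611 and 217 bp from that of Mtl, a Rac-like GTPase.

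Groups of related genes were taken by symbol from 13 lists, and their counts are read against the 5.51% of all pairs. Among pairs with a cytoplasmic ribosomal protein gene, 14 of 58 (24.1%) had a summit in the pooled list, 13 in the conservative list, 8 in replicate 1 and 2 in replicate 2. Each list was counted on its own, so the 13 are not necessarily among the 14. Of the 14, CG11597/RpL10Ab and CG5946/RpL10Ab share 1 peak. In replicate 2, 3.49% of all pairs had one, so the count there was near that share. The strongest were RpS27/Nup37 (146.1; 91.3 in replicate 1 and 51.2 in replicate 2), RpL34b/CG8132 (135.5), Ripalpha/RpL7 (128.5) and RpL41/NaCP60E (113.1). Among the 4, the signal of replicate 1 was above that of replicate 2, by the least in RpL34b/CG8132 (66.5 and 65.3). Mitochondrial ribosomal protein pairs had 7 of 61 (11.5%), with 7 in the conservative list, 4 in replicate 1 and 6 in replicate 2. Their strongest were mRpL41/CG8079, mRpS23/CenG1A, Art3/mRpS10 and mRpL23/CG9004.

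Translation initiation factor pairs had 3 of 22, namely Ugalt/eIF2Bbeta, eIF4EHP/CG18428 (158.3) and RpL28/eIF1 (68.9). Aminoacyl-tRNA synthetase pairs had 2 of 26, Hem/IleRS (99.5) and GluProRS/AP-1sigma (74.0). Proteasome pairs had 0 of 27 and respiratory chain pairs 1 of 49, TppII/ND-MWFE (66.5). RNA polymerase, general transcription and Mediator pairs had 4 of 64, 140up/Polr2B (85.9), CG11247/Polr2H (73.5), MED30/Rev1 (70.7) and CG12321/MED17 (60.6), but 1 in the conservative list, 1 in replicate 1 and 3 in replicate 2. Splicing pairs had 1 of 30, SNRPG/mthl1 (98.3), and DNA replication pairs 1 of 19, CG13933/PolD2 (166.1). Vesicle sorting pairs had 4 of 55, Tcs5/CHMP2B, Pdp/Rab39 (67.6), Fur1/Vps33B (61.0) and Pc/Rab26 (59.2), but 2 in the conservative list, 1 in replicate 1 and 3 in replicate 2. Polycomb and Trithorax pairs, of regulators that keep genes silent or active, had 3 of 10, brm/Arl1 (176.2), E(z)/Cnep1r2 (73.3) and Pc/Rab26, but 1 in the conservative list, 1 in replicate 1 and 2 in replicate 2. Insulator and promoter factor pairs had 3 of 7, Cp190/CG4338 (59.3), M1BP/CG8202 (55.3) and Dref/RpL13 (48.8), but 1 in the conservative list, 1 in replicate 1 and 0 in replicate 2. Of those last 3, Dref/RpL13 overlapped a thresholded peak of replicate 1 (47.4, with 5.96 in replicate 2), and the other two overlapped none in either replicate. Where both genes were on a list there were 18 pairs, of which Dref/RpL13, RpL28/eIF1 and Pc/Rab26 had a summit. The lists differ in size and share genes, so the small ones are counts only.

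The 1 pair with a casein kinase II list gene was fwe/CkIIalpha-i1 on arm 3L, with a gap of 569 bp. It holds the gene for the protein that is tagged in this strain, and fwe encodes the cell competition protein Flower. This pair had no summit and no candidate in the pooled or conservative list, nor in replicate 2. Replicate 1 had a thresholded summit there with a signal of 183.5. The signal at this pair therefore rests on 1 library.

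Summit shares by arm were 6.09% of 509 pairs on 2L, 3.68% of 543 on 2R, 7.92% of 518 on 3L, 5.71% of 683 on 3R and 3.97% of 403 on X. None of the 11 pairs on arm 4 had a summit, which at this count allows a share of up to 28.5%. Pairs whose annotated genes overlap had 13 of 232 (5.603%), close to the 134 of 2435 (5.503%) of pairs whose genes do not. In 6 cases a summit was shared by 2 or more pairs, for example by Coq4/CG32176 and frc/CG32176 (135.1).

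The 5 pairs of highest signal without a thresholded summit were CG4297/MED15 (115.1), CG1602/PIG-G (83.1), l(1)G0320/RpS28b (80.2), Sirt6/pont (76.8) and Gcn5/ver (71.2). Sirt6 encodes a deacetylase, pont a helicase-like subunit of chromatin remodelers, and Gcn5 a histone acetyltransferase. Their signals lay within the range of the pairs with a summit.

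Base composition was compared because the shown gaps are rich in A and T. Within 100 bp of the summit, GC content had a median of 34.8% at peaks of pairs, against 36.8% at peaks of other starts and 37.8% at peaks elsewhere. Candidates at pairs that were not thresholded had 40.8%. This did not set the pairs with a summit apart from other pairs, because windows of the same length at the gap centres of pairs without a summit had 33.3%. Whole gaps of 200 to 299 bp had a median of 34.1% with a summit and 34.2% without. Runs of 8 or more A or T numbered 3.06 per window at peaks of pairs and 3.26 at gap centres without a summit. Low GC content at the summit was not limited to pairs, but the difference depended on the bin. In the 20 bp bin just right of the summit, the mean was 34.1% at peaks of pairs, against 34.7% at peaks of other starts and 36.2% at peaks elsewhere. In the bin just left of it, peaks of pairs were lower, at 31.4%, against 35.4% at peaks of other starts and 36.3% at peaks elsewhere.

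**Figure D5:**
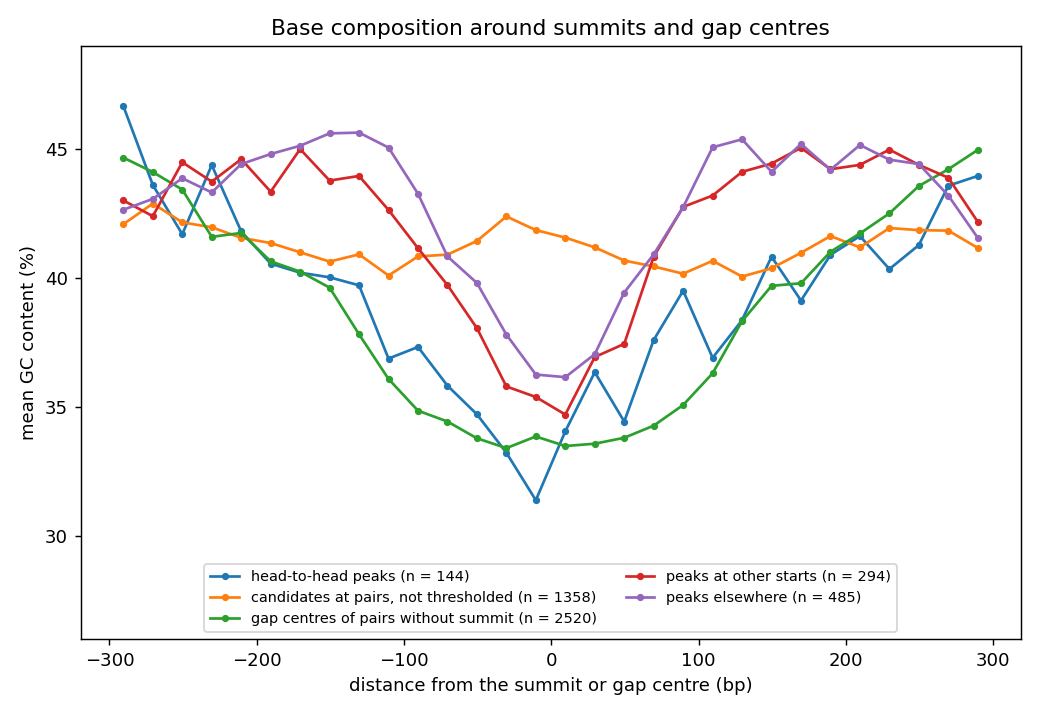
Mean GC content in percent (y axis, in 20 bp bins) is plotted against distance in bp from the summit or the gap centre (x axis) for 5 sets. Peaks at head-to-head pairs dip near the centre, as do peaks at other starts and elsewhere, and the gap centres of pairs without a summit are as low over most of the central 200 bp, while candidates that were not thresholded are flat near 41%.

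Sequence words in whole gaps with their margins of 100 bp were counted on both strands. ACAGTGG was in 22 of 147 pairs with a summit (15.0%), against 162 of 2520 without (6.43%). In gaps of 200 to 299 bp, whose windows were equally long (median 457.5 and 454 bp), it was in 9 of 52 with a summit (17.3%), against 22 of 492 without (4.47%) and 4.79% of windows of 451 bp at starts with no facing gene. All 10 matches in those 52 gaps were within 50 bp of a start, against 12 of 22 matches in gaps without a summit. CAGCTG was in 41.5% of all pairs with a summit, against 30.9% of those without. In gaps of 200 to 299 bp it was in 28 of the 52 (53.85%), against 33.9% without a summit and 19.4% at other starts. Within 100 bp of the summit it was in 14.58% of peaks at pairs, against 14.65% of candidates at pairs that were not thresholded. ACAGTGG came from an earlier search of these same peaks, so its share is a description and no independent evidence. Within 100 bp of the summit, ACAGTGG was in 7.64% of peaks at pairs, against 14.6% of peaks at other starts and 15.3% of peaks elsewhere.

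The DRE TATCGATA was in 21.8% of pairs with a summit and 21.9% of pairs without, against 6.32% of other starts in windows of 451 bp. In gaps of 200 to 299 bp, where window lengths were alike, it was in 17.3% with a summit and 21.3% without. A pair's window holds 2 starts and that of another gene 1, which the comparison does not remove. GGTCACAC, the word of the promoter factor M1BP, was in 12.9% of pairs with a summit, against 19.6% of pairs without and 4.95% of other starts. CGATA alone was in 74.1% of pairs with and 74.1% of pairs without a summit. GAGAG, the word of GAGA factor, was in 32.0% with and 35.7% without. The other words searched were TATAAA (69.4% with a summit, 63.3% without), TCAGT (61.2% and 63.5%), CACGTG (7.48% and 7.58%), CAGGTAG (4.76% and 2.46%) and CAGTG (76.2% and 67.7%). In gaps of 200 to 299 bp, CAGTG was in 65.4% with a summit and 66.7% without, so its excess was not seen there. In that class TATAAA was in 73.1% and 62.2%, GGTCACAC in 13.5% and 23.0%, and GAGAG in 19.2% and 30.5%. TCAGT was in 57.7% and 58.7%, CACGTG in 7.69% and 7.32%, CAGGTAG in 3.85% and 1.63%, and CGATA in 71.2% and 68.7%. A match says only that the letters are present, not that a factor was bound.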

How the data were processed

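CkIIalpha-i1-GFP embryo chromatin was profiled in 2 biological replicates of 1 group. The authors deposited 8 peak lists used here, a ranked and a thresholded one for each replicate and for the pooled and the conservative comparison. Coordinates are on dm6, per the labels. The alignment and peak calling tools were not given in the sources used here, and read depth is unknown, so no interval rests on depth. The deposited signal score of a peak has no stated scale, and the deposited −log10 of the global IDR was read from the ranked lists.

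Pairs were built from Ensembl release 115 starts (BDGP6.54) and sequences were read from the RefSeq Release 6 genome; all ranked peaks of the 6 arms lay within its arms. A summit was the peak start plus the deposited offset. Starts of other genes were scored from 500 bp upstream to 100 bp downstream; these windows were merged where they overlapped. Peaks of replicates were matched by an overlap of at least 1 bp. With 1 group, no test was run: counts are given with exact Clopper-Pearson intervals at 95%. The pair and density scripts were tested on simulated data. Python 3.11.15, pandas 2.3.3, numpy 2.4.6 and scipy 1.17.1 were used.

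Named pairs were the 20 of highest pooled signal with a thresholded peak in each replicate, up to 4 per gene list, the pair of the casein kinase II list, pairs with 2 or more summits, the 5 of highest signal without a summit and pairs with both genes on lists. The members, lists and words were chosen with earlier results of these data known. The gap classes, the summaries of summit position, the GC comparison, the choice of printed sequences and the word comparison at other starts were chosen after the data had been seen. Searches of all words of 5 to 7 bases between pairs with and without a summit, and position profiles of 4 words, were also made; no word stood out clearly, and they are not reported.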

Additional observations from a re-analysis of the deposited data

Results flagged for a closer look

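Candidates at 4 pairs had a −log10 global IDR of 2 or more in the pooled ranked list, the lowest value among the thresholded peaks, and were not in the thresholded list. These were CG4297/MED15 with a signal of 115.1, Sirt6/pont with 76.75, and Dph4/RpL13A and Spec2/RpL13A, which share 1 candidate with a signal of 58.17. They are signals outside the list that the comparisons used, and counting them would add 4 pairs to the 147. Why they were left out was not tested.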

How the results depend on the processing

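The number of pairs with a summit was 55 at a global IDR of 0.001 or less and 70 to 93 in single replicates, and other settings stayed within 1.5 times of 147. The percent of pairs was 4.46% in the conservative list, 2.06% at that IDR, 4.54% with the summit inside the gap and 2.63% to 3.49% in single replicates. The percent of peaks at pairs was 17.9% in the conservative list, 20.5% at that IDR, 12.9% inside the gap, 16.6% within 250 bp of it and also by peak overlap, 12.1% with gaps of at most 500 bp, 14.2% from outermost starts and also without overlapping genes, and 17.0% to 17.5% in single replicates. The density ratio stayed above 2 in every setting run, at 4.37 inside the gap, 2.35 within 250 bp, 4.12 with gaps of at most 500 bp and 2.85 with 200 bp upstream of other starts. The median summit position was 47.3% at that IDR, 53.4% from outermost starts and also without overlapping genes, and 47.8% to 50.3% in single replicates; it uses only summits inside the gap, so the margin and overlap settings gave no value. The settings of 200 bp upstream and of genes that do not overlap were added after seeing the data. Causes were not tested. No paired analysis was possible because there is 1 group and no test. Depth is unknown, so weak peaks cannot be told from undersampled ones.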
